A study of Mus musculus with 4 samples.

Results

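Esrrb, Tbx3, Zfp42, Sall4 and Lin28a are regulators of mouse embryonic stem (ES) cells, and their loci were read in chromatin immunoprecipitation (ChIP-seq) libraries of such cells. The loci were taken as fixed windows of the mouse genome build mm9: Esrrb on chromosome 12 from 87.690 to 87.875 Mb, Tbx3 on chromosome 5 from 120.105 to 120.145 Mb, Zfp42 on chromosome 8 from 44.370 to 44.405 Mb, Sall4 on chromosome 2 from 168.560 to 168.605 Mb and Lin28a on chromosome 4 from 133.550 to 133.585 Mb. Together the windows spanned 340 kb and held 64 of the 32256 deposited peaks of dimethylated lysine 4 of histone H3 (H3K4me2), 10 of the 5106 peaks of the demethylase LSD1 and none of the 158 peaks of the control antibody.

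The cells were R1 ES cells of 129SV origin at passages 13 to 18, grown on gelatin with 1000 U/ml of leukaemia inhibitory factor (LIF), and no treatment distinguished the samples. Chromatin of these cells was precipitated with an antibody labelled as against LSD1, with an antibody against H3K4me2 or with control IgG, and DNA without precipitation (Input) was the further control. Each group held 1 library, of 3801082 reads for Input, 4755619 for IgG, 5833862 for LSD1 and 6416657 for H3K4me2. Hence no comparison had a replicate check and no p-value is given. The brackets after a ratio are exact 95% intervals that cover counting error within these libraries only and are not adjusted for the number of regions. Levels are given in reads per 1000000 of all the reads that a library holds (RPM), divided by the length in kb where stated. The labels pair the LSD1 antibody with a catalogue number that belongs, to general knowledge, to another supplier's H3K27me3 antibody. What was precipitated is therefore called LSD1 after the label.

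Esrrb is an orphan nuclear receptor that sustains self-renewal, and Tbx3 is a T-box transcription factor downstream of LIF signalling. Zfp42 (Rex1) is a zinc finger protein widely used as a marker of the undifferentiated state, and Sall4 is a zinc finger factor that acts with Pou5f1 and Nanog. Lin28a binds RNA and blocks the maturation of let-7 microRNAs. H3K4me2 lies at active or poised promoters and enhancers, and LSD1 demethylates lysine 4 that carries 1 or 2 methyl groups. In ES cells LSD1 is known at enhancers that are switched off when the cells differentiate.

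No gene annotation of mm9 was used. Gene starts were background knowledge rounded to 1 kb, so distances below are in whole kb. The promoter of a gene was taken as its widest H3K4me2 peak within 3 kb of the start. RefSeq lists a pair of starts for Esrrb, 60.5 kb apart on GRCm38.p6. No H3K4me2 peak lay within 3 kb of the upstream start, and the inner start was used instead, a choice made after the peaks were seen. In the Zfp42 window, 7882 bp from 44397119 to 44405000 held no read of any library, which lowers levels per kb of that whole window. The ES cell label was set against its marker genes by the same promoter rule. Pou5f1, Sox2, Nanog, Klf4, Tfcp2l1 and Prdm14 each had an H3K4me2 peak within 3 kb of the start, with H3K4me2 to IgG ratios from 3.46 to 28.9. The hepatocyte gene Alb had none, while the collagen gene Col1a1 of fibroblasts had 1 peak, of 620 bp with 31 H3K4me2 and 2 IgG reads. Its ratio of 11.5 (2.92 to 99.1) was above those of Pou5f1, Sox2, Nanog, Klf4 and Prdm14, so that H3K4me2 at Col1a1 did not set it apart from the ES cell genes.

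Promoter sequences show which starts the data bear on: the unmarked and the marked start of Esrrb, and the starts of Zfp42 and Lin28a, with H3K4me2 peaks close by. They are from RefSeq on GRCm38.p6, whose positions are not those of mm9, and run from 250 bases before the start to 50 after it on the strand of the gene. Of the 5 genes, 3 were matched, with 4 sequences, and Tbx3 and Sall4 had no entry. Capitals mark matches on either strand to ATTTGCAT (octamer bound by Pou5f1), AAGGTCA (core of the sequence bound by Esrrb), GGGCGG (GC box), CCAAT and TATAAA.
Esrrb upstream start, chr12:86360867-86361166, plus strand: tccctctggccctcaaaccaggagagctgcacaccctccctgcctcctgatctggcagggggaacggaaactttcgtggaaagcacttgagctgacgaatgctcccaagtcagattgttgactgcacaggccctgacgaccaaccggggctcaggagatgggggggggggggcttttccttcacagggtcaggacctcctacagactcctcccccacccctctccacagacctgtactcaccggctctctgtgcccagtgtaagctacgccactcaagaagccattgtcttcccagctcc
Esrrb inner start, chr12:86421394-86421693, plus strand: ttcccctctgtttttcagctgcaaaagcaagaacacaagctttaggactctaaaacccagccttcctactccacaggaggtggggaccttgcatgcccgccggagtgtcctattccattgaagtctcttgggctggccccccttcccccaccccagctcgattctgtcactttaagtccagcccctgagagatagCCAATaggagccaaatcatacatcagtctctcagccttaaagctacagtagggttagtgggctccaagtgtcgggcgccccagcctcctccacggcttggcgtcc
Zfp42, chr8:43306960-43307259, minus strand: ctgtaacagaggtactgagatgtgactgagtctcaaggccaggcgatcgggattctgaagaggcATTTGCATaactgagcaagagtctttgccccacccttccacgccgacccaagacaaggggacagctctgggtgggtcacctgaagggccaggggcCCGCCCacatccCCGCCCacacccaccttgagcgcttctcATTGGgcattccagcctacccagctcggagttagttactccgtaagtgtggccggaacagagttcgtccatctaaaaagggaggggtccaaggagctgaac
Lin28a, chr4:134018767-134019066, minus strand: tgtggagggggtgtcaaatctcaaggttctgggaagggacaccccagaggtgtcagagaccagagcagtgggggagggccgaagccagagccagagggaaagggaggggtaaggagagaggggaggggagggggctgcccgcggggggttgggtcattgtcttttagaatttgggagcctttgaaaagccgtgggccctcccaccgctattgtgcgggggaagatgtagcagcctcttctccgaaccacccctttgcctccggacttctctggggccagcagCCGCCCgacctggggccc
The octamer stood in the Zfp42 promoter and in 1.74% of the 32851 promoters of the table. The Zfp42 promoter also held GC boxes at bases 160 to 165 and 172 to 177 and a CCAAT match at bases 200 to 204, all on the opposite strand. Lin28a had 1 GC box, present in 35.7% of promoters, and the inner Esrrb start had 1 CCAAT match, present in 37.4%. AAGGTCA (4.72% of promoters) and TATAAA (13.6%) were in none of the 4, and no matches overlapped. The unmarked and the marked Esrrb start each had 7 CG dinucleotides, the median of all promoters, against 11 in Zfp42 and 10 in Lin28a.

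Across the whole windows the LSD1 and H3K4me2 libraries both exceeded IgG at all 5 loci. The Esrrb window held 403 Input, 699 IgG, 1510 LSD1 and 2751 H3K4me2 reads. In the same order the Tbx3 window held 80, 169, 467 and 834 reads and the Zfp42 window 55, 76, 255 and 573. H3K4me2 had the most reads and LSD1 the next most at every locus, with 101, 172, 456 and 849 reads at Sall4 and 66, 121, 313 and 542 at Lin28a. The LSD1 to IgG ratio was highest at Zfp42 with 2.74 (2.11 to 3.58), then 2.25 (1.89 to 2.70) at Tbx3, 2.16 (1.81 to 2.59) at Sall4, 2.11 (1.70 to 2.62) at Lin28a and 1.76 (1.61 to 1.93) at Esrrb. The intervals of neighbours in this order overlapped, and the order depended on the control. Against Input the LSD1 ratio was 3.80 at Tbx3, 3.09 at Lin28a, 3.02 at Zfp42, 2.94 at Sall4 and 2.44 at Esrrb. The H3K4me2 to IgG ratio was 5.59 (4.39 to 7.20) at Zfp42, above the other 4, which lay between 2.92 (2.68 to 3.17) at Esrrb and 3.66 at both Tbx3 and Sall4. Against Input, Zfp42 was not above Tbx3, with H3K4me2 ratios of 6.17 (4.67 to 8.29) and 6.18 (4.91 to 7.87). Of 63424 bins of 40 kb across the genome, 1.07% had LSD1 at least 2-fold over IgG and 4.85% had H3K4me2 at least 2-fold over IgG. By these folds 4 of the 5 windows passed for LSD1 and all 5 for H3K4me2. The windows were drawn around genes and differ in width from the bins.

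Summed over the windows, the excess of LSD1 over IgG sat mainly in the H3K4me2 peaks, where Esrrb gave 747 of the 1428 LSD1 reads. Over the 5 windows LSD1 reached 3.82 times IgG (3.37 to 4.33) in the 64 peaks, which cover 69.1 kb, and 1.38 (1.27 to 1.49) outside them. At Esrrb the ratio outside the peaks was 1.14 (1.02 to 1.27), while Zfp42 and Tbx3 kept 1.99 (1.44 to 2.79) and 1.85 (1.49 to 2.31). H3K4me2 reads outside the peaks had ratios to IgG of 1.40 at Esrrb, 3.86 at Zfp42 and 2.57 at Tbx3.

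At Esrrb the marked chromatin lay far inside the gene. Of the 26 H3K4me2 peaks of the window, 21 stood close together from 87804695 to 87848951, with under 4 kb between neighbours. In this cluster of 44.3 kb the first peak was centred 43 kb after the inner start, and the RefSeq gene is 160.512 kb long on GRCm38.p6. H3K4me2 peaks covered 71.9% of the cluster, and all 5 LSD1 peaks of the window lay in it. It held 66.2% of the H3K4me2 reads of the window and 55.6% of the LSD1 reads, but 24.9% of IgG and 25.1% of Input reads. It had 1822 H3K4me2, 840 LSD1, 174 IgG and 101 Input reads, and the IgG level was 0.827 RPM per kb in it and 0.784 in the remainder of the window. LSD1 exceeded IgG 3.94-fold (3.34 to 4.66) in the cluster, and in the remainder the ratio was 1.04 (0.927 to 1.17).

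**Figure D1:**
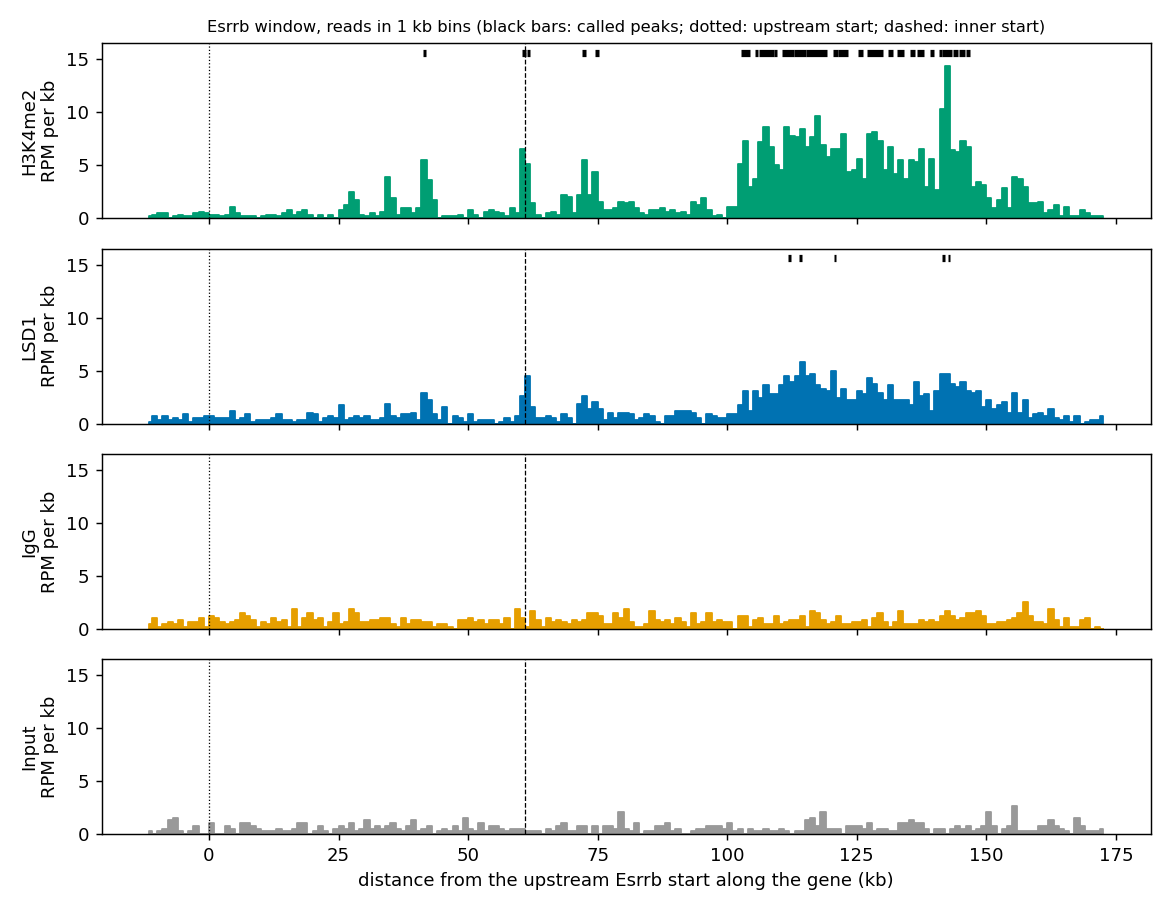
Reads of the 4 libraries in 1 kb bins across the Esrrb window, in RPM per kb, by distance in kb from the upstream start; black bars are called peaks, the dotted line is the upstream start and the dashed line the inner start. H3K4me2 and LSD1 are raised over the cluster and around the inner start, while no bin of IgG exceeds 2.52 and none of Input exceeds 2.63 RPM per kb.

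Within the Esrrb cluster the peaks were joined into 6 domains, by joining peaks within 1 kb, and 4 of these were wider than 6 kb. The widest ran from 87827322 to 87836130 (8809 bp) and only 46 of the 23437 domains of the genome were wider. It held no called LSD1 peak, yet its LSD1 to IgG ratio was 3.76 (2.58 to 5.63). The next, from 87812561 to 87821324, held 2 LSD1 peaks and a ratio of 4.66 (3.31 to 6.73), an interval that overlaps the former. The widest single peak, from 87817305 to 87821324 (4020 bp), had 201 H3K4me2, 98 LSD1, 20 IgG and 21 Input reads and no LSD1 call. The densest was the peak from 87843463 to 87845355, where H3K4me2 reached 12.7 RPM per kb, above 99.9% of all H3K4me2 peaks. LSD1 stood at 4.62 RPM per kb there, above 81.9% of them. The IgG level there, 1.67 RPM per kb on 15 reads, was the highest of the 26 peaks of the window. LSD1 exceeded IgG 2.77-fold (1.53 to 5.31). With 0.5 reads added the ratio was 2.71, against a median of 3.17 over all H3K4me2 peaks.

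The starts of Esrrb differed. Within 2 kb of the upstream start there were 11 H3K4me2, 14 LSD1, 17 IgG and 4 Input reads, and both ratios to IgG had intervals that include 1, at 0.480 (0.203 to 1.09) for H3K4me2 and 0.671 (0.306 to 1.45) for LSD1. Within 2 kb of the inner start there were 87, 54, 23 and 6 reads. The promoter peak at the inner start, from 87762355 to 87763201, held 38 H3K4me2, 20 LSD1, 4 IgG and no Input reads. Its LSD1 to IgG ratio was 4.08 (1.37 to 16.4), against 4.03 (3.37 to 4.85) in the other 25 peaks of the window.

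Tbx3 had 10 H3K4me2 peaks, and the strongest LSD1 signal of the window lay 10 kb after the start. The gene is 14.191 kb long in RefSeq. The peak there, from 120130156 to 120131919, had 91 H3K4me2, 59 LSD1, 7 IgG and 1 Input reads and contained the only LSD1 peak of the window. The promoter peak from 120119296 to 120120797 had 60, 30, 12 and 3 reads in the same order. LSD1 exceeded IgG 6.87-fold (3.13 to 17.8) in the former and 2.04-fold (1.01 to 4.37) in the latter, and the former ratio was 3.33 times the latter (1.08 to 11.1). Relative to H3K4me2 the LSD1 reads differed less, by 1.30 times (0.726 to 2.34). The IgG level was 1.68 RPM per kb in the promoter peak, against a median of 0.979 over all H3K4me2 peaks.

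At Zfp42, the H3K4me2 peak with the most reads and the widest peak near the start differed in LSD1 reads. The peak from 44384468 to 44386013, 7 kb after the start of a gene of 11.943 kb, had 74 H3K4me2, 54 LSD1, 5 IgG and 7 Input reads and held 2 LSD1 peaks. The widest peak near the start, from 44394232 to 44395357 and centred 3 kb before it, had 49 H3K4me2, 8 LSD1, 5 IgG and 1 Input reads. H3K4me2 stood clear of IgG at both, 11.0-fold (4.49 to 34.8) and 7.26-fold (2.91 to 23.4). LSD1 exceeded IgG 8.80-fold (3.55 to 28.2) at the former and 1.30-fold (0.376 to 5.07) at the latter. The LSD1 to H3K4me2 ratio of RPM was 0.803 (0.554 to 1.16) and 0.180 (0.0734 to 0.382), so that it was 4.44 times higher (1.88 to 11.8) at the former. The LSD1 level of the latter, 1.22 RPM per kb, was above only 2.35% of all H3K4me2 peaks. The neighbouring peak from 44395908 to 44396813 also had 8 LSD1 reads beside 34 of H3K4me2. The narrow peak nearest to the start, from 44392611 to 44393103, had 18 H3K4me2, 8 LSD1 and 1 IgG reads. Its LSD1 to H3K4me2 ratio was 0.489 (0.184 to 1.18). Low ratios also occurred after the start. The peak from 44389526 to 44390006, 2 kb after it, had 6 LSD1 beside 28 H3K4me2 reads, a ratio of 0.236 (0.0798 to 0.580). The peak from 44378499 to 44378960, 13 kb after it, had a ratio of 0.194 (0.0364 to 0.671). The remaining peaks after the start had ratios from 0.511 to 0.576.

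Sall4 had 11 H3K4me2 peaks around and inside its 18.87 kb. The peak with the most reads, from 168586381 to 168588343 and 6 kb after the start, had 105 H3K4me2, 45 LSD1, 7 IgG and 1 Input reads and held the only LSD1 peak. That LSD1 peak, from 168587001 to 168587341, had 11 LSD1 reads, more than only 0.0783% of the LSD1 list, and no IgG read. The widest peak within 3 kb, from 168588589 to 168590025, had 72, 35, 5 and 2 reads without an LSD1 call, and its centre lay 4 kb after the start. LSD1 exceeded IgG by like amounts in both, 5.24-fold (2.35 to 13.8) and 5.71-fold (2.23 to 18.7). Here a called peak and an uncalled neighbour had LSD1 levels of 3.93 and 4.17 RPM per kb. The peak nearest to the start, from 168592707 to 168593622, had 36 H3K4me2, 19 LSD1 and 6 IgG reads, with an LSD1 to IgG ratio of 2.58 (0.991 to 7.90). At 25 kb after the start, past the gene, the peak from 168567502 to 168567990 had the highest LSD1 level of the window, 5.61 RPM per kb with 16 LSD1 and 1 IgG reads, and no LSD1 call.

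At Lin28a the H3K4me2 peak with the most reads was the promoter peak itself. This peak, from 133572758 to 133573947 and centred 2 kb after the start, had the most H3K4me2 and LSD1 reads of the 8 peaks, with 74 H3K4me2, 37 LSD1, 4 IgG and 5 Input reads. LSD1 exceeded IgG 7.54-fold (2.71 to 29.1) there, without an LSD1 call, and the other 7 peaks gave 2.91 (1.99 to 4.37). The quotient of both, 2.58 (0.841 to 10.6), had an interval that includes 1. The neighbouring peak from 133571452 to 133572516 had 49 H3K4me2, 28 LSD1 and no IgG reads. Its LSD1 level was 7.61 times that of 3 IgG reads, and the exact lower bound of the ratio was 5.79. The densest in H3K4me2 was the peak from 133566959 to 133567785, 9.99 RPM per kb against 9.69 at the promoter. The LSD1 peak of this 15.867 kb gene lay 7 kb after the start, from 133567858 to 133568230, with 14 LSD1 and 1 IgG reads. The H3K4me2 peak around it, from 133567800 to 133568985, had a lower LSD1 level than the promoter, 3.90 against 5.33 RPM per kb. The peak nearest to the start, from 133573959 to 133574813, had 24 LSD1 reads but 10 IgG reads, a ratio of 1.96 (0.902 to 4.58).

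**Figure D2:**
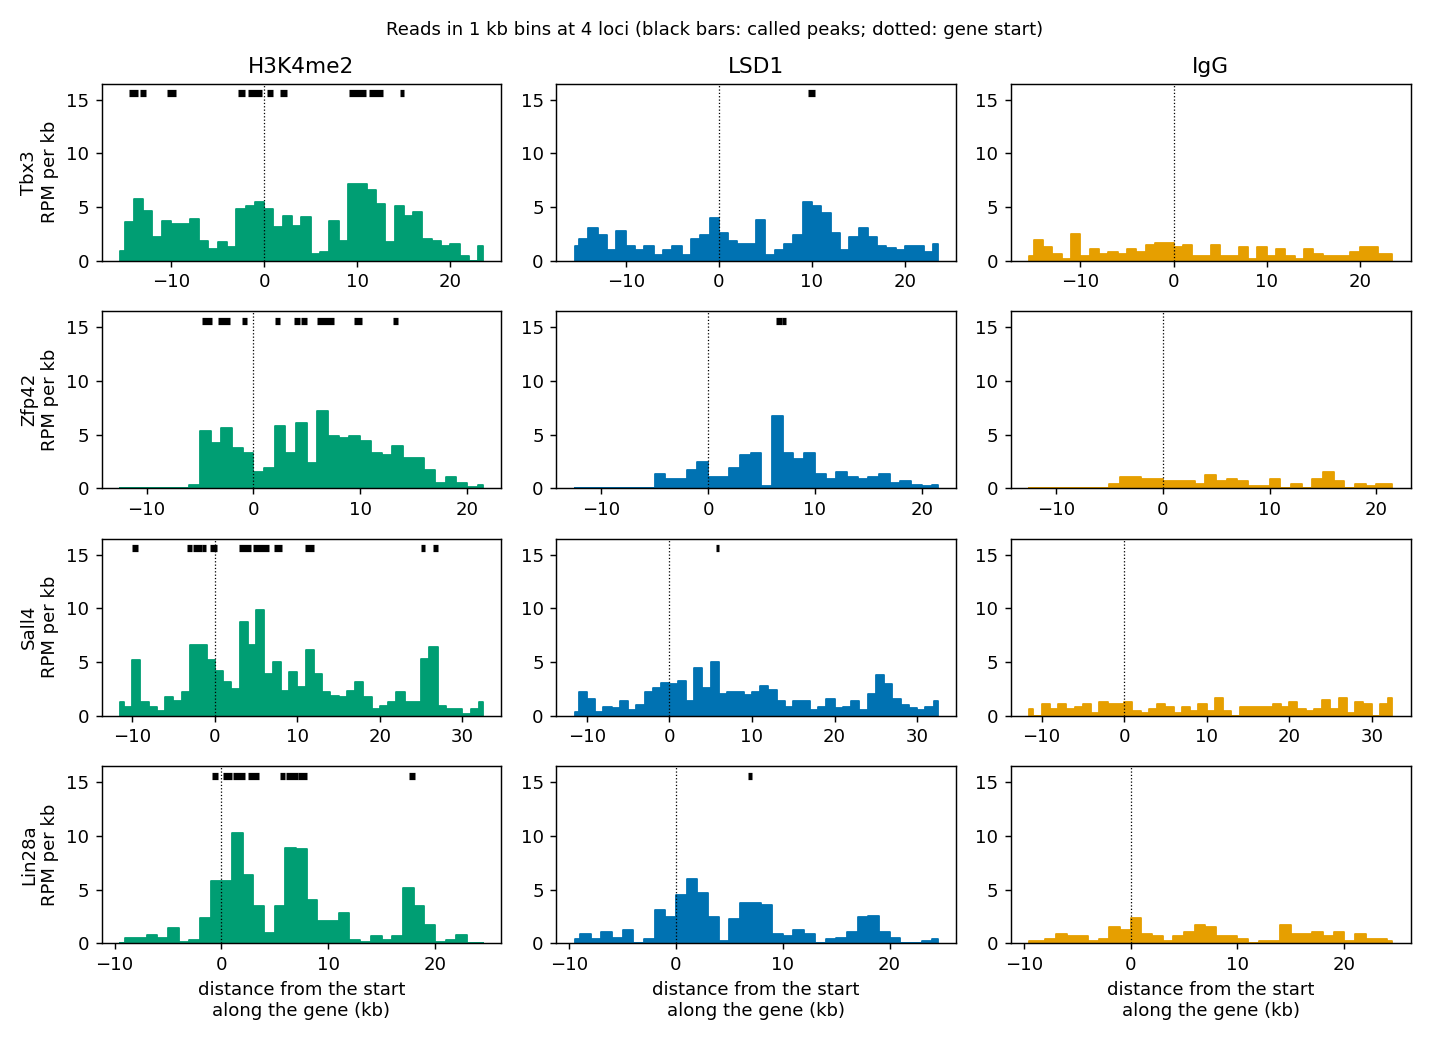
Reads of the H3K4me2, LSD1 and IgG libraries in 1 kb bins at Tbx3, Zfp42, Sall4 and Lin28a, in RPM per kb, by distance in kb from the gene start along the gene; black bars are called peaks and the dotted line is the start. Each called LSD1 peak lies 6 to 10 kb after the start, and the empty left end of the Zfp42 panels is the stretch of 7882 bp without reads.

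Over the 5 promoters, LSD1 reads were present without LSD1 calls. None of the 5 promoter peaks held an LSD1 peak, and 14.2% of all H3K4me2 peaks did, a share at which none of 5 is near the background. LSD1 calls aside, 3 of the 5 had LSD1 at least 2-fold over IgG, as had 79.8% of all H3K4me2 peaks, both counted with 0.5 reads added. By that rule Tbx3, at 1.99, fell just short. The ratios without added reads ran from 1.30 at Zfp42 to 7.54 at Lin28a. With 0.5 reads added the median was 3.71 over the 5 and 3.17 over all H3K4me2 peaks. The order of the genes depended on the peak taken. In the peak nearest to the start, chosen after seeing the data, the ratio was 6.52 (0.874 to 289) at Zfp42, on 1 IgG read. It was 2.58 (0.991 to 7.90) at Sall4 and 1.96 (0.902 to 4.58) at Lin28a. At Esrrb and Tbx3 the nearest peak was also the widest. Summed over the 5 promoters, LSD1 exceeded IgG 3.53-fold (2.36 to 5.45), and in the other 59 peaks 3.85-fold (3.38 to 4.40). The quotient, 0.918 (0.599 to 1.45), had an interval around 1. LSD1 relative to H3K4me2 was 0.488 (0.394 to 0.602) at the promoters and 0.487 (0.456 to 0.520) in the other peaks.

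Other genes of the pluripotency network were read by the same rule. The promoter peaks of Pou5f1, Sox2 and Klf4 held an LSD1 peak, and those of Nanog, Tfcp2l1 and Prdm14 did not, although another peak within 3 kb of the Prdm14 start held one. The peaks of the first 3 were wider, 1938 to 3354 bp, against 847 to 1502 bp in the 5 genes described here. Those of Nanog, Tfcp2l1 and Prdm14 were 1900, 1093 and 958 bp wide. The LSD1 to IgG ratios of Pou5f1, Sox2 and Klf4, 4.18 (2.39 to 7.84), 3.06 (1.59 to 6.35) and 2.98 (1.86 to 4.95), were within the range of the 5. The housekeeping genes Actb, Gapdh and Eef2 had an LSD1 peak in each promoter peak and ratios from 2.81 to 8.15. Their peaks were 1435, 2231 and 2435 bp wide, so that Actb had a call in a narrower peak than Nanog without a call. The part of width in the calls was not tested. The difference in calls between these short lists was not tested.

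**Figure D3:**
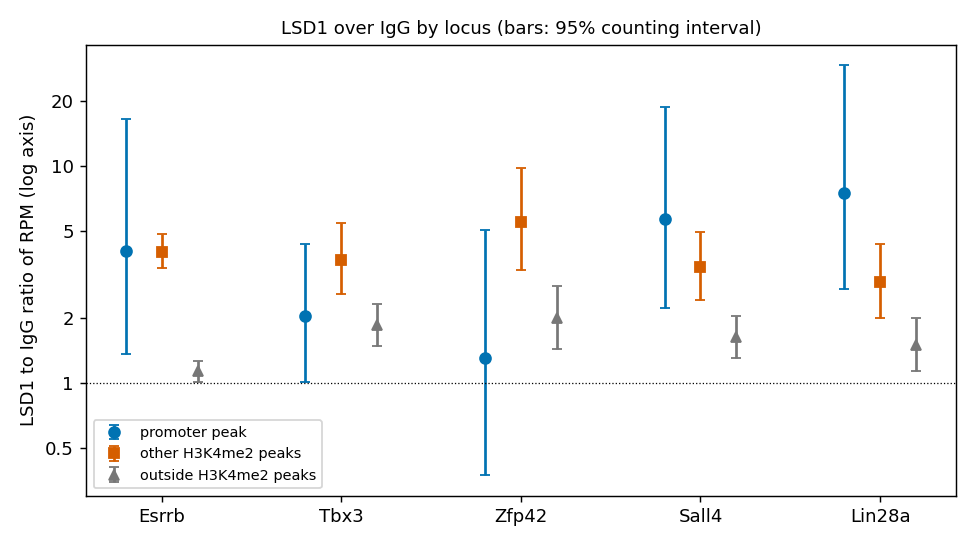
LSD1 to IgG ratio of RPM on a log axis for each locus, in the promoter peak (circles), in the other H3K4me2 peaks of the window (squares) and outside H3K4me2 peaks (triangles); bars are exact 95% counting intervals and the dotted line marks 1. The promoter peaks run from 1.30 at Zfp42 to 7.54 at Lin28a with wide intervals, and outside the peaks no ratio exceeds 1.99. Each promoter peak is the widest within 3 kb, and in the peak nearest to the start, not shown, the ratio was 6.52 at Zfp42 and 1.96 at Lin28a.

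The 10 called LSD1 peaks all touched an H3K4me2 peak, as did 91.7% of the 5106 LSD1 peaks. None of the 10 had its centre within 3 kb of a start, and 5 of them lay in the Esrrb cluster. Without gene annotation the share over all 5106 LSD1 peaks is not known, so nothing particular to the 10 follows from their distances. At Tbx3, Zfp42, Sall4 and Lin28a they lay 6 to 10 kb after the start, and at Esrrb 51 to 82 kb after the inner start. They were 341 to 735 bp wide and held 11 to 28 LSD1 reads and 0 to 5 IgG reads. In 9 of the 10 the lower bound of LSD1 to IgG was above 1. The list was called on LSD1 reads, and 97.6% of all 5106 LSD1 peaks had LSD1 at least 2-fold over IgG, so that nothing particular to the 10 follows. Among the 9 peaks with an IgG read, the highest ratio was at Esrrb, from 87813753 to 87814283, with 23 LSD1 reads, 36 H3K4me2 reads and 1 IgG read, or 18.7 (3.04 to 772). At Zfp42 the adjacent peaks from 44384663 to 44385109 and from 44385116 to 44385670 had 19 and 28 LSD1 reads beside 1 and 3 IgG reads. The exception was the Esrrb peak from 87844532 to 87844953, with 17 LSD1 and 5 IgG reads and a ratio of 2.77 (0.982 to 9.61). The Sall4 peak, with 11 LSD1 reads and no IgG read, could not be ranked among them. LSD1 was 2.99 times the level of 3 IgG reads, the most that a count of 0 allows. The exact lower bound, which also covers the counting error of the LSD1 reads, was 2.05.

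H3K4me2 peaks before the start had lower ratios of both LSD1 and H3K4me2 to IgG than those after it, a split chosen after the data were seen. The 16 peaks centred before a start held 202 LSD1, 539 H3K4me2, 68 IgG and 25 Input reads, and the 48 after it held 1226, 2685, 237 and 122. The LSD1 to IgG ratio was 2.42 (1.83 to 3.24) before and 4.22 (3.67 to 4.87) after, with a quotient of 0.574 (0.419 to 0.794). The ratio before the start was the lower one at 4 loci but not at Esrrb, where 5.54 (2.16 to 18.2) stood before the inner start and 3.98 (3.33 to 4.79) after it. At Tbx3 the ratios were 2.02 (1.32 to 3.18) before and 5.56 (3.33 to 9.87) after, the only locus whose quotient, 0.366 (0.177 to 0.735), had an interval below 1. Against H3K4me2 reads the quotient over all windows was 0.821 (0.685 to 0.981), and at Zfp42 alone it was 0.459 (0.264 to 0.777). H3K4me2 to IgG moved the same way, with a quotient of 0.700 (0.523 to 0.945) over all windows and 0.461 (0.232 to 0.891) at Tbx3. LSD1 to H3K4me2 at Tbx3 had a quotient of 0.791 (0.549 to 1.13), an interval that includes 1. Both ratios to IgG at Tbx3 rest on the same IgG reads, and the source of their difference was not tested. The IgG level at Tbx3 was 1.37 RPM per kb before the start and 0.724 after it. In the same order LSD1 stood at 2.77 and 4.03 and H3K4me2 at 6.17 and 7.10. Against Input the LSD1 ratios at Tbx3 had overlapping intervals, 7.17 (3.32 to 18.4) before and 12.6 (5.62 to 35.0) after. Over all windows the IgG level was 1.08 RPM per kb before and 0.891 after. With Input in place of IgG the quotient for LSD1 was 0.804, with overlapping ratios of 5.26 (3.47 to 8.33) and 6.55 (5.43 to 7.95). H3K4me2 to Input was 12.8 (8.56 to 19.9) before and 13.0 (10.9 to 15.8) after, so with Input the H3K4me2 ratios were alike. All 8 H3K4me2 peaks with an LSD1 call were after the start, as were 48 of the 64 peaks. A call was held by 14.2% of all H3K4me2 peaks, a share at which few of the 16 before a start would hold one. The difference in calls between the sides was not tested. Since starts are rounded to 1 kb, peaks centred within 1 kb of a start may belong to the other side.

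Set beside the whole list, the 64 H3K4me2 peaks were ordinary in their share of LSD1 calls. An LSD1 peak was found in 8 of the 64, or 12.5%, against 14.2% of all H3K4me2 peaks. LSD1 was at least 2-fold over IgG in 53 of 64, or 82.8%, near the 79.8% of all. H3K4me2 was at least 2-fold over IgG in all 64, as in 99.3% of all. The peaks were somewhat wider than the list, with a median of 882 bp against 734, and their median levels were alike, at 6.72 against 6.67 RPM per kb for H3K4me2 and 3.43 against 3.44 for LSD1. Per Mb of H3K4me2 peak there were 145 LSD1 peaks in the windows and 169 in the genome. No peak of the 64 had more LSD1 than H3K4me2 RPM, and 1.29% of all peaks did.

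Among the 64, the 8 peaks with an LSD1 call were wider and denser than the 56 without. Their medians were 1828.5 and 837 bp in width, 8.09 and 6.48 RPM per kb in H3K4me2, and 4.56 and 3.09 RPM per kb in LSD1. The whole list showed the same, with 1012 and 702 bp, 7.54 and 6.56 RPM per kb of H3K4me2 and 5.02 and 3.23 of LSD1. The LSD1 level is part of what the call was made on. An overlap of 1 bp sufficed for a call, which a wider peak meets more easily, so the widths are a description. Of the 8 peaks, 4 lay in the Esrrb cluster. LSD1 and H3K4me2 levels rose together over the 64 peaks, with a Spearman rho of 0.611, and 0.376 over all 32256. The points share their libraries and the width by which both levels are divided, so the correlation is a description. The lowest LSD1 level, 0.575 RPM per kb with 2 LSD1 reads beside 21 of H3K4me2, was in the Sall4 peak from 168595743 to 168596338, 3 kb before the start.

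**Figure D4:**
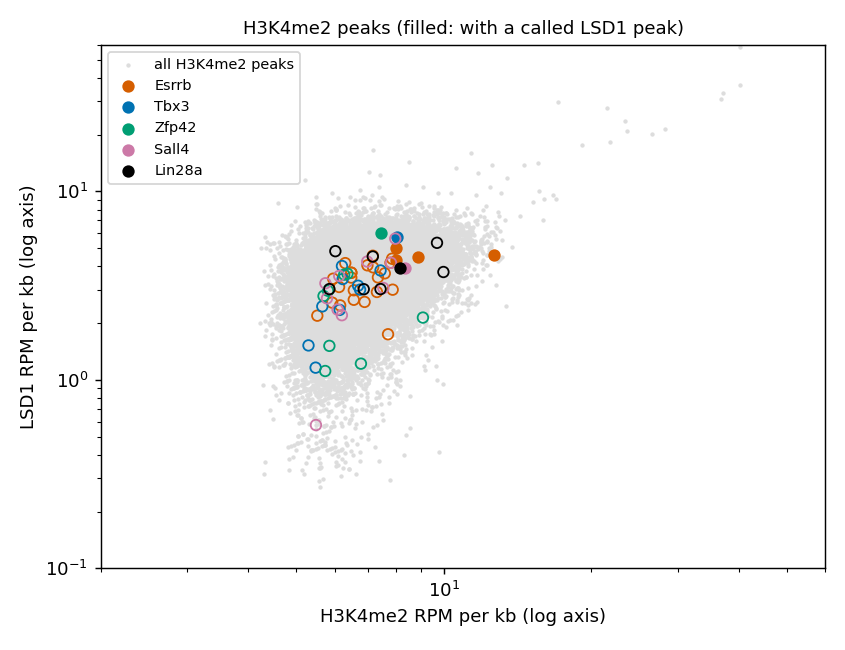
LSD1 against H3K4me2 level, both in RPM per kb on log axes, for all H3K4me2 peaks with reads in both libraries (grey) and the 64 peaks of the windows, coloured by gene and filled where an LSD1 peak was called. The 64 peaks lie within the grey cloud, from 5.30 to 12.7 for H3K4me2, and the lowest LSD1 level, 0.575, is in a Sall4 peak 3 kb before the start.

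Between the peaks that flank the gap nearest to each start, H3K4me2 was lower than in the 300 bp to either side at all 5 genes, as the absence of a call selects for. LSD1 was lower there in 4 of the 5. At Tbx3, the exception, a gap of 549 bp had 8 H3K4me2, 10 LSD1 and 6 IgG reads, or 3.12 RPM per kb of LSD1 against 2.57 beside it. At Lin28a the gap of 503 bp held 12, 6 and 3 reads, and at Esrrb that of 163 bp held 1, 3 and 0. The Zfp42 gap of 2604 bp had 27 H3K4me2, 19 LSD1 and 9 IgG reads, or 1.62 RPM per kb of H3K4me2 against 8.31 beside it. At Sall4 the gap of 2681 bp from 168590026 to 168592706 had 52 H3K4me2, 38 LSD1, 5 IgG and 3 Input reads. LSD1 exceeded IgG 6.19-fold (2.43 to 20.2) there, although neither list had a peak in it.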

How the data were processed

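Per the labels' protocols, chromatin was fixed with formaldehyde and sonicated, and library fragments near 200 bp were gel-purified. The Illumina Genome Analyzer II gave reads of 36 bases. The genome build is mm9, per the submitters' processing notes. For aligner, filters and peak caller, the choices were not given in the sources used here. The authors deposited aligned reads, 1 line each, which give counts that were not normalized, and peak positions without scores. Within a library every combination of chromosome, 5' end and strand was unique, so that copies are absent from the files.

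Each read was counted at 100 bp along its strand from its start. Ratios of RPM carry exact binomial 95% intervals conditional on both counts, and quotients of ratios carry conditional odds ratio intervals. Peaks were matched by an overlap of 1 bp, and calls of a fold used 0.5 added reads and a threshold of 2. Where no read was seen, up to 3 reads remained possible (0.631 RPM in IgG, 0.789 in Input). With 1 library per group no test was made.

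The windows, genes and lists were chosen with earlier results of these data known. Named were the 5 genes with, in each window, the promoter peak, the H3K4me2 peak with the most reads and every LSD1 peak, and the listed marker and housekeeping genes. Other peaks named, the Esrrb inner start, its cluster, the nearest peaks, the gaps and the split before and after the start were chosen after seeing the data. Alternatives were Input as control, unmoved reads, scaling to reads outside peaks, other promoter regions, overlap rules, pseudocounts and read minimums. Counts and ratios were computed with scipy 1.17.1, pandas 2.3.3 and numpy 2.4.6 in Python 3.11.15, and plots with matplotlib 3.10.9.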

Additional observations from a re-analysis of the deposited data

How the results depend on the processing

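Over 24 results, 105 alternative values were computed, of which 78 stayed within the interval of the reported value (counts within 1.5 times), 25 moved and 2 reversed. Both reversals, 0.671 for LSD1 and 0.480 for H3K4me2 to IgG at Esrrb, came from reading the upstream start in place of the inner one, an alternative chosen after seeing the data. With Input as the control, the LSD1 ratios were 6.52 and 5.21 in the promoter peaks of Tbx3 and Zfp42, 2.44, 3.80, 2.94 and 3.09 in the windows of Esrrb, Tbx3, Sall4 and Lin28a, and 5.42 in the Esrrb cluster. The H3K4me2 ratios were then 11.8 and 29.0 in the same promoter peaks and 4.04, 6.18, 4.98 and 4.86 in the same windows, and the quotient before over after the start was 0.804. The promoter peaks held 3 Input reads at Tbx3 and 1 at Zfp42. Those of Esrrb, Sall4 and Lin28a held 0, 2 and 5, and their ratios with Input stayed within the intervals. The cause of the moves with Input was not tested. Scaled to reads outside peaks, H3K4me2 to IgG was 3.53 at Esrrb, 4.431 at Tbx3 and 4.432 at Sall4 in the windows. In the H3K4me2 peak nearest to the start, chosen after seeing the data, LSD1 to IgG was 6.52 at Zfp42, on 1 IgG read, and 1.96 at Lin28a, where H3K4me2 to IgG was 2.45. Over 2 kb to either side of the Lin28a start these were 2.71 and 4.10. For these moves in promoter region the cause was not tested. The count of H3K4me2 peaks with an LSD1 peak was 3 in the upper 50% of each list by density, which leaves 33 of the 64 peaks, and 4 without Esrrb. The count with LSD1 at least 2-fold over IgG was 30 without Esrrb, whose window held 26 of the 64. No paired analysis was possible because with 1 library in each group nothing could be matched. Promoter ratios rest on 4 to 12 IgG reads, which sets their wide intervals.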
